A study of Mus musculus with 6 samples.

Results

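The genes of the mitochondrial protein import machinery were examined in mouse blastocysts cultured with vesicles from the human Fallopian tube. The members were 31 genes chosen by symbol for their function, from the outer and inner membrane translocases, the import motor, the sorting machinery and the processing peptidases. All 31 were found among the 55774 genes of the deposited table, and all 31 passed the filter on low values, which kept the 11924 genes that reached an FPKM of 1 in 3 or more libraries. FPKM, fragments scaled to transcript length and to the mapped fragments of the library, is a level per transcript length, so levels can be set side by side between genes.

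Embryos of wild-type (WT) ICR mice were collected from the oviduct (as 2-cell embryos per the labels, as zygotes per the methods) and grown to blastocysts in CZB medium that held extracellular vesicles from Fallopian tubes. The vesicles came from women with endometriosis in the oEV-EMT group (3 libraries) and from women without it in the oEV-ctrl group (3 libraries), and each library was made from polyA RNA of 10 pooled blastocysts. The GEO labels describe the control donors as having uterine fibroids, whereas the study's methods name cervical intraepithelial neoplasia. No sequenced group was cultured without vesicles, so both groups shared the exposure to human vesicles, and the values give the difference between the 2 kinds of vesicle only. The methods state that experiments were repeated, but neither they nor the labels say which culture or vesicle donors each library came from, and the p-values then measure only the spread between these libraries, which may be technical. The labels give no batch.

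Nearly all mitochondrial proteins are encoded in the nucleus, made in the cytosol and carried across the mitochondrial membranes by dedicated complexes. The TOM complex is the common entry pore of the outer membrane, from which small TIM chaperones ferry hydrophobic carriers to the TIM22 complex and the SAM complex receives barrel-shaped proteins. Proteins with a cleavable presequence pass through TIM23, are pulled inward by an ATP-driven motor around mitochondrial Hsp70 and are trimmed by the processing peptidase. Preimplantation embryos depend strongly on mitochondrial ATP, and the mitochondria mature in shape and activity toward the blastocyst stage.

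Every import gene was expressed in every library, with mean levels that spanned the range from *Timm21*, a TIM23 subunit, at 3.31 FPKM to *Tomm5*, a small TOM subunit, at 648 FPKM. *Tomm5*, *Tomm7*, *Timm23*, *Timm8b* and *Tomm6* had the highest means, between 367 and 648 FPKM, each above the level of at least 96.6% of the tested genes. The ranges of the leading 4 over the libraries overlapped. *Tomm5* ran from 524 to 811 FPKM, *Tomm7* from 518 to 709 FPKM, *Timm23* from 436 to 632 FPKM and *Timm8b* from 369 to 573 FPKM. Within every library, *Tomm5* was above *Timm23* and *Timm8b*, and *Tomm7* was above *Timm8b*. The order of the other pairs among these 4 changed between libraries. *Timm21*, *Samm50* and *Timm10b* had the lowest means, at 3.31, 5.84 and 10.7 FPKM. Within the TIM23 complex, the levels of the channel subunit *Timm23* thus lay far above those of its partner *Timm21* in each library.

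**Figure D1:**
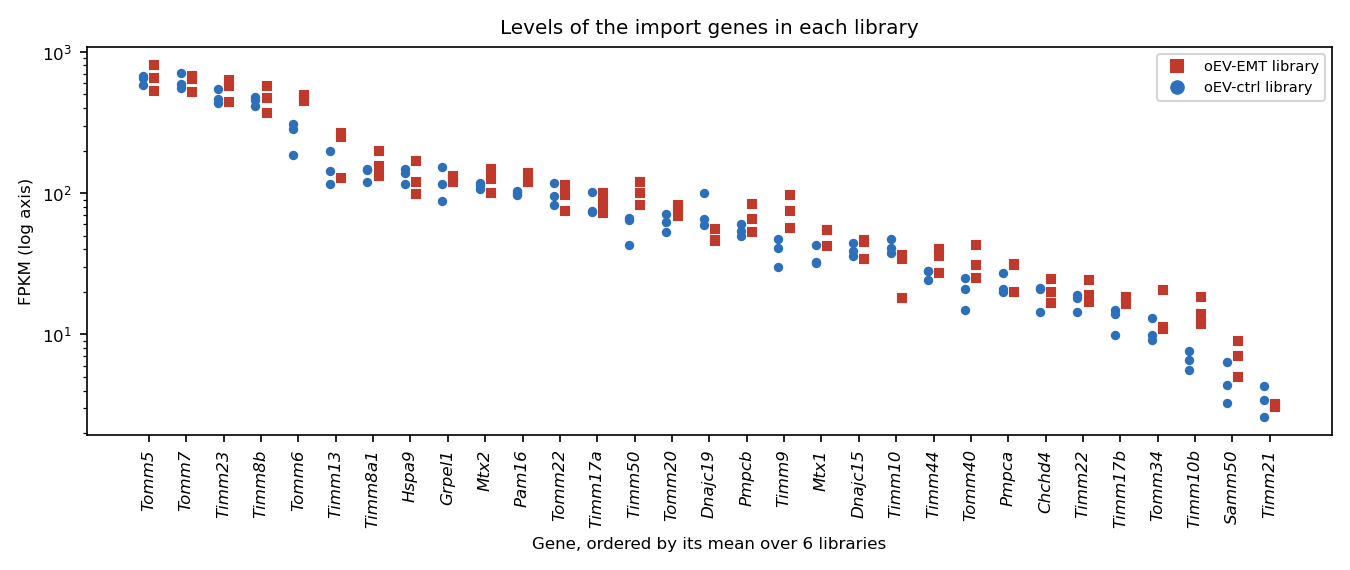
Levels of the 31 import genes in each library, in FPKM on a log axis, with genes ordered by their mean over the 6 libraries. Squares are oEV-EMT libraries and circles are oEV-ctrl libraries, and the levels run from *Timm21* (mean 3.31 FPKM) to *Tomm5* (mean 648 FPKM), with most genes showing overlapping groups.

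No import gene passed the thresholds between the groups, and the differences with the smallest p-values were higher levels of *Timm10b*, *Tomm6*, *Timm9* and *Timm50* with oEV-EMT, by 1.73 to 2.25 times in the group means. At a Benjamini-Hochberg adjusted limma p of 0.05 or less, 0 of 31 members were called, beside 0 of 11924 genes (0%), and these counts were the same when a log2 fold change of 1 or more in either direction was also required. The lowest adjusted limma p was 0.133 for a member and 0.0934 for any gene. At an unadjusted limma p of at most 0.05, 6 members (19.4%) were higher with oEV-EMT beside 12.8% of all tested genes, and 1 member (3.23%) was lower beside 2.55%.

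For 6 members (19.4%), beside 18.1% of tested genes, each oEV-EMT library was above each oEV-ctrl library. The reverse held for 2 members (6.45%), beside 4.34%. The log2 fold change, here the difference of the group means of log2(FPKM + 1), which understates changes of low genes, was above 0 for 25 members, beside 70.1% of all genes. Its median was 0.21 over the members and 0.17 over all tested genes, and 17 members lay above that all-gene median and 14 below.

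The surplus of values above 0 moved with the scaling between libraries. The median over all genes was 0.17 in FPKM as deposited, 0.23 with each library scaled to an equal sum, 0.01 with median-of-ratios factors and -0.04 with upper quartile factors. The genes at an unadjusted limma p of at most 0.05 split into 1527 higher and 304 lower as deposited, 1921 and 192 with equal sums, 767 and 763 with median-of-ratios factors, and 550 and 963 with upper quartile factors. Among the members, 28, 17 and 14 were above 0 under these 3 scalings in turn, and 7, 4 and 4 were higher at an unadjusted limma p of at most 0.05. None of the 10 members described below with their library values changed sign under any of them. Members above without overlap between groups were 8, 6 and 4 in turn, beside 22.7%, 9.85% and 7.59% of tested genes. Members below were 0, 2 and 3, beside 2.71%, 10.3% and 12.5%. With equal sums, *Dnajc19* and *Timm10*, which lay below without overlap as deposited, thus overlapped.

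The summed level of the 31 members was 4159, 4487 and 4891 FPKM in oEV-EMT libraries 1 to 3 and 3878, 3829 and 4088 FPKM in oEV-ctrl libraries 1 to 3. All 3 oEV-EMT sums were the higher, but this separation depended on *Tomm6*, at 494 FPKM in oEV-EMT 1 and 285 FPKM in oEV-ctrl 3. Without *Tomm6*, the sum of oEV-EMT 1 was below that of oEV-ctrl 3. The deposited values of each library add to between 1293175 and 1551567, and a single unannotated entry took 15.3% to 31.5% of that sum. Leaving that entry out, the library sums were also higher with oEV-EMT, at 1095568 to 1136217 against 1062555 to 1086071 with oEV-ctrl. Of these sums the members made up 0.380%, 0.395% and 0.446% with oEV-EMT and 0.365%, 0.354% and 0.376% with oEV-ctrl. Here too, leaving out *Tomm6* put the share of oEV-EMT 1 below that of oEV-ctrl 3. Library oEV-ctrl 2 held the lowest value of the 6 libraries for 15 of the 31 members. Its median log2(FPKM + 1) over all tested genes was also the lowest, at 2.930, with oEV-ctrl 1 close at 2.933. The count was not made over all genes, so it is not a trait shown for import genes.

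**Figure D2:**
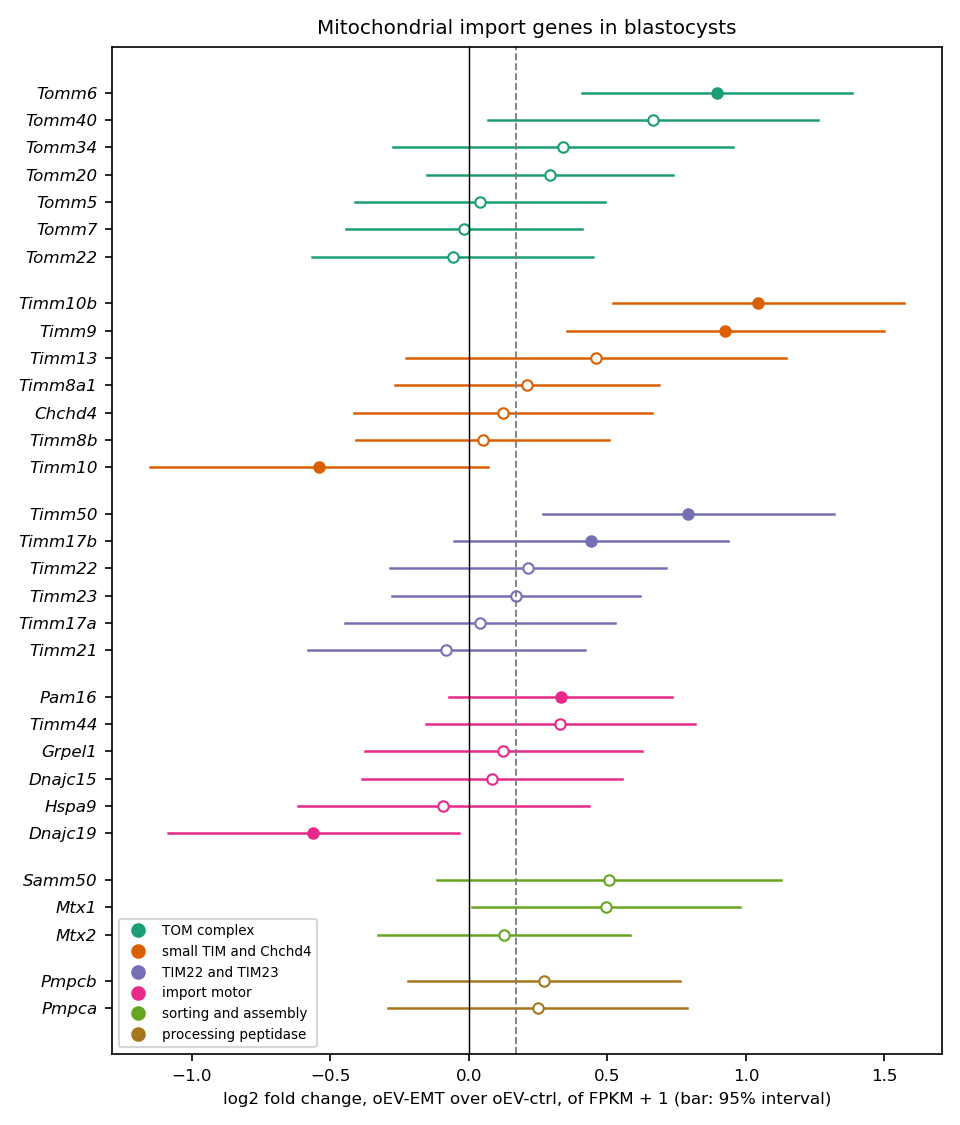
Log2 fold change of each import gene, oEV-EMT over oEV-ctrl, from FPKM + 1, with its 95% limma interval (bars), coloured and grouped by role. Filled points mark the 8 genes whose groups did not overlap, the solid line is 0 and the dashed line is the median of all tested genes (0.17), and points lie from -0.56 (*Dnajc19*) to 1.05 (*Timm10b*).

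Of the 7 members grouped with the TOM complex, which include the cytosolic co-chaperone *Tomm34*, only *Tomm6* was without overlap between groups. It was higher with oEV-EMT, as were 18.1% of tested genes. *Tomm6* and *Tomm40* had an unadjusted limma p of at most 0.05, both on the higher side, beside 12.8% of tested genes. *Tomm6*, a small subunit that helps hold the complex together, was at 494, 451 and 476 FPKM in oEV-EMT libraries 1 to 3 and at 308, 186 and 285 FPKM in oEV-ctrl libraries 1 to 3. All oEV-EMT libraries were above all oEV-ctrl libraries, of which oEV-ctrl 2 was the lowest. The means were 473 ± 21.3 and 259.7 ± 64.8 FPKM (SD, n = 3 in each group), with a log2 fold change of 0.90 (SE 0.22, 95% interval 0.41 to 1.38, limma adjusted p = 0.157). *Tomm6* (ENSMUSG00000033475) lies on chromosome 17 at 47686646 to 47688386 on the minus strand of GRCm38, and the gene model *Gm21981* on the same strand covers 76.0% of its exon bases, so reads of these 2 genes can be divided between them. *Gm21981* was listed at 22.8, 0.203 and 1.32 FPKM with oEV-EMT and 0.0377, 41.8 and 9.25 FPKM with oEV-ctrl. It was highest in oEV-ctrl 2 and next highest in oEV-EMT 1, the libraries with the lowest and the highest *Tomm6* value. With the FPKM of *Tomm6* and of the genes that share sequence with it summed, the log2 difference was 0.80.

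*Tomm40*, the channel-forming subunit of the outer membrane pore, was at 30.8, 43.1 and 25.0 FPKM with oEV-EMT and 20.8, 15.0 and 25.2 FPKM with oEV-ctrl. The groups touched, since the lowest oEV-EMT library lay just under the highest oEV-ctrl library. The log2 fold change was 0.67 (SE 0.27, 95% interval 0.07 to 1.26, limma adjusted p = 0.278), 0.46 without oEV-EMT 2 and 0.41 with upper quartile factors. The receptors stood at 76.1 ± 6.84 against 62.2 ± 8.68 FPKM for *Tomm20*, which recognises presequences, and at 95.3 ± 20.1 against 98.8 ± 18.1 FPKM for *Tomm22*, the central receptor (SD, n = 3). For the small subunits *Tomm5* and *Tomm7* the log2 fold changes were 0.04 (95% interval -0.41 to 0.49) and -0.02 (95% interval -0.44 to 0.41), intervals that exclude a 2-fold change in either direction. *Tomm34*, a cytosolic co-chaperone of import, was at 0.34 (95% interval -0.27 to 0.95).

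The small TIM chaperones of the intermembrane space gave the members' widest spread of differences, with *Timm10b* and *Timm9* higher with oEV-EMT and *Timm10* lower. *Timm10b*, a small TIM that docks on the TIM22 complex, was at 18.5, 11.9 and 13.9 FPKM with oEV-EMT and 7.60, 5.55 and 6.55 FPKM with oEV-ctrl. The lowest oEV-EMT library was well above the highest oEV-ctrl library. The means were 14.8 ± 3.41 and 6.57 ± 1.02 FPKM (SD, n = 3), a log2 fold change of 1.05 (SE 0.24, 95% interval 0.52 to 1.57, limma adjusted p = 0.133). The gene (ENSMUSG00000089847) spans 105640056 to 105643637 on the plus strand of chromosome 7, where *Arfip2* overlaps it on the opposite strand and *Gm45799* on the same strand. *Arfip2*, a gene outside the import machinery, was at 13.9, 6.82 and 8.54 FPKM with oEV-EMT and 8.57, 4.97 and 6.24 FPKM with oEV-ctrl, and whether the counting used strand is not given in the sources used here. Summed with the genes that share its sequence, *Timm10b* had a log2 difference of 0.84.

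*Timm9* (ENSMUSG00000021079, chromosome 12, 71123173 to 71136684, minus strand) encodes a subunit that alternates with the *Timm10* product in the ring-shaped chaperone of carrier proteins. Its levels were 97.5, 74.8 and 56.5 FPKM in oEV-EMT libraries 1 to 3 and 30.1, 40.6 and 47.4 FPKM in oEV-ctrl libraries 1 to 3. Every oEV-EMT library was above every oEV-ctrl library, with the narrowest gap between oEV-EMT 3 and oEV-ctrl 3. The log2 fold change was 0.93 (SE 0.26, 95% interval 0.35 to 1.50, limma adjusted p = 0.170) and 0.73 without oEV-EMT 1. *Timm10* (ENSMUSG00000027076, chromosome 2, 84826997 to 84830213, plus strand) was at 34.3, 36.5 and 18.2 FPKM with oEV-EMT and 37.5, 41.0 and 47.4 FPKM with oEV-ctrl. Its oEV-EMT values all lay below the oEV-ctrl values, though 2 of them by little, and oEV-EMT 3 was by far the lowest. The log2 fold change of *Timm10* was -0.54 (SE 0.27, 95% interval -1.15 to 0.07, limma adjusted p = 0.375), and -0.23 without oEV-EMT 3. Neither *Timm9* nor *Timm10* shared any stretch of 50 bases with another gene.

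Because their products work together, the ratio of *Timm9* to *Timm10* was taken within each library, where the scaling between libraries cancels. *Timm9* was 2.84, 2.05 and 3.11 times the level of *Timm10* in oEV-EMT libraries 1 to 3 and 0.802, 0.992 and 1.00 times in oEV-ctrl libraries 1 to 3. The 2 transcripts were thus close to equal in 2 of the oEV-ctrl libraries, and *Timm9* was the more abundant in each oEV-EMT library. The log2 ratios differed by 1.50 between groups (exact two-sided permutation p = 0.1, the smallest that 3 libraries against 3 allow, adjusted p = 0.375 over 10 ratios). *Timm10b* was 0.539, 0.325 and 0.765 times *Timm10* with oEV-EMT and 0.203, 0.135 and 0.138 times with oEV-ctrl. These ratios also did not overlap and differed by 1.71 on the log2 scale (exact permutation p = 0.1, adjusted p = 0.375). The design cannot bring an exact p below 0.1, so no ratio could pass 0.05.

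The promoters of these 3 small TIM genes are shown because *Timm9* and *Timm10b* stood higher and their partner *Timm10* lower. Each is the RefSeq window on GRCm38.p6 from 250 bases before the RefSeq start of the gene to 50 after, 5′ to 3′ on the gene's strand, with matches on either strand to CCGGAAG, the core bound by ETS factors, to the E-box CACGTG and to CCAAT in capitals. The windows lie at chr12:71136626-71136925 (minus) for *Timm9*, chr2:84826771-84827070 (plus) for *Timm10* and chr7:105640195-105640494 (plus) for *Timm10b*, whose RefSeq start lies inside the gene span given above, which is that of GENCODE.
Timm9: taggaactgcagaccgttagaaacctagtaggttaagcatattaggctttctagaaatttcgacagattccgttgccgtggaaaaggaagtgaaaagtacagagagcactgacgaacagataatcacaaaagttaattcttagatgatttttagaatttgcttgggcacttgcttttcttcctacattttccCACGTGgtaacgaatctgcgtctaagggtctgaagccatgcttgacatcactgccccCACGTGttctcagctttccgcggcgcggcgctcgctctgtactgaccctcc
Timm10: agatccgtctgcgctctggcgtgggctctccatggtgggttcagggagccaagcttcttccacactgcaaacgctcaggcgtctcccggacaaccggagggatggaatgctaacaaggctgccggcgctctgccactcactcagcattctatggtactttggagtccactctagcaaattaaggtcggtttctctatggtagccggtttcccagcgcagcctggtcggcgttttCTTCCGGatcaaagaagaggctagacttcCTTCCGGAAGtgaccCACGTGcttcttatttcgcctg
Timm10b: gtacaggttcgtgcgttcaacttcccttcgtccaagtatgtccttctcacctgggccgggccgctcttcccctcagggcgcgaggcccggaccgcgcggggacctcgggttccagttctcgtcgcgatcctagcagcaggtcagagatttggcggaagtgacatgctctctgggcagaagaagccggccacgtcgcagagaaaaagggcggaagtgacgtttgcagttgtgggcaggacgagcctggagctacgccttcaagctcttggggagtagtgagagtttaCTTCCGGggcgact
The *Timm9* window holds 2 matches to CACGTG and none to CCGGAAG, the *Timm10* window holds 3 to CCGGAAG, of which 2 overlap, and 1 to CACGTG, and the *Timm10b* window holds 1 to CCGGAAG. None of the 3 windows holds CCAAT. These letters say where a match occurs and not whether a factor binds.

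A promoter window was found for 28 of the 31 members, giving 30 windows. CCGGAAG occurred in windows of 11 members, among them *Timm23*, *Tomm22*, *Tomm34* and *Timm8b*, and in 40.0% of the member windows beside 8.86% of all 32851 RefSeq windows. CACGTG occurred in 4 members and in 13.3% of their windows beside 7.15% of all windows, GCGCA and GCGC with 1 base between them, a motif of NRF1, a regulator of nuclear genes for mitochondria, in 4 members and 13.3% beside 4.60%, and CCAAT in 9 members and 30.0% beside 37.4%. The 32851 windows were not limited to the genes tested here and were not matched for GC content. Whether these shares are particular to import genes was therefore not tested. The members with CCGGAAG included genes with higher, lower and near-zero differences.

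Among the other small TIM genes the groups overlapped. *Timm13*, a partner of the TIM8 proteins, was at 215 ± 76.0 with oEV-EMT and 152 ± 41.8 FPKM with oEV-ctrl (SD, n = 3), with oEV-EMT 1 below the highest oEV-ctrl library. *Timm8a1*, the mouse counterpart of the human deafness-dystonia gene, was at 161 ± 34.3 and 138 ± 16.4 FPKM, and it shares 41.0% of its 50-base stretches with the model *Gm9797*, which makes its level uncertain. *Timm8b* had a log2 fold change of 0.05 (95% interval -0.41 to 0.51). *Chchd4*, the oxidoreductase that traps small cysteine-rich proteins in the intermembrane space, was at 20.5 ± 4.04 and 18.8 ± 3.89 FPKM (SD, n = 3), a log2 fold change of 0.12 (95% interval -0.41 to 0.66).

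**Figure D3:**
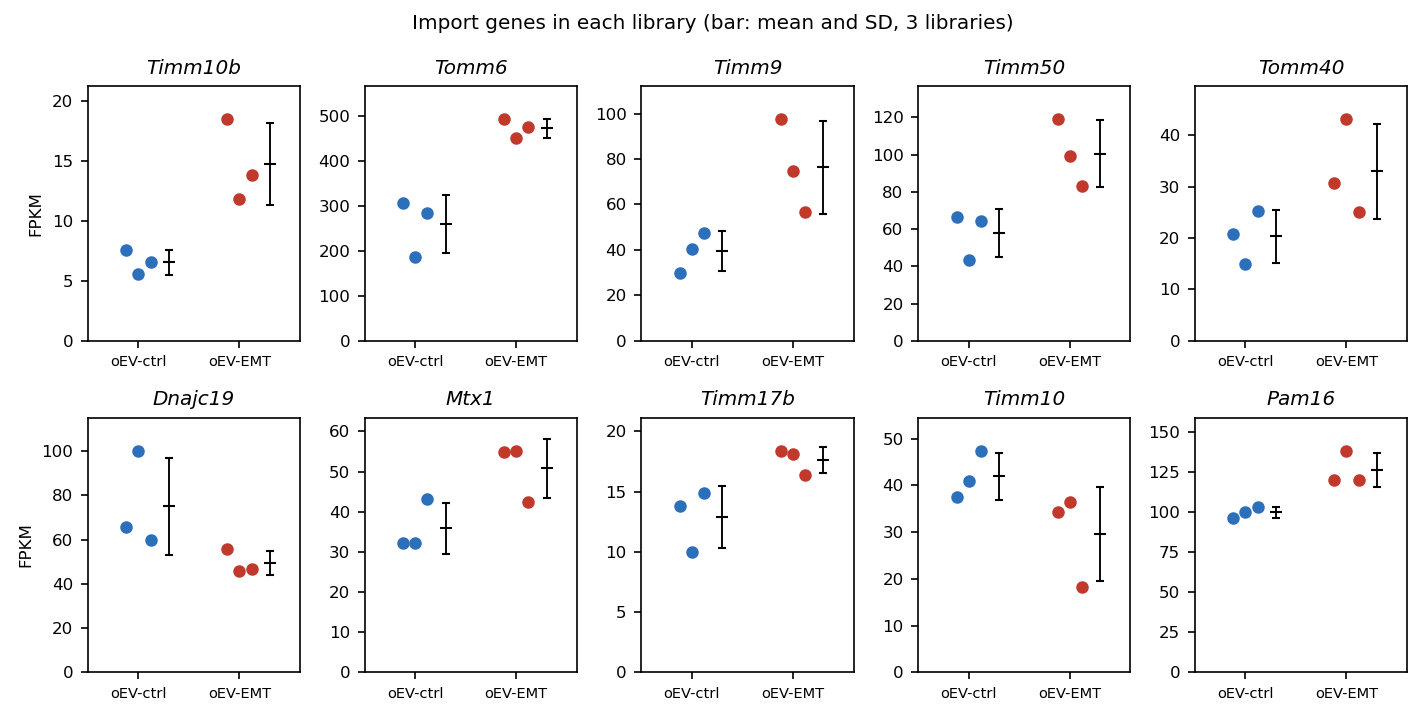
FPKM of the 10 import genes described with their library values, on linear axes from 0, one panel per gene, with points for the 3 libraries of each group and a bar for the mean and SD. In FPKM as deposited, *Timm10b*, *Tomm6*, *Timm9*, *Timm50*, *Timm17b* and *Pam16* were higher in all oEV-EMT libraries, *Dnajc19* and *Timm10* lower in all of them, and *Tomm40* and *Mtx1* overlapped.

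In the inner membrane translocases, 2 of 6 members, *Timm50* and *Timm17b*, were higher with oEV-EMT without overlap, as were 18.1% of tested genes. The groups overlapped for *Timm23*, *Timm22*, *Timm17a* and *Timm21*. *Timm50*, the receptor that hands presequence proteins to the TIM23 channel, was at 119, 99.5 and 83.0 FPKM with oEV-EMT and 66.5, 43.2 and 64.3 FPKM with oEV-ctrl. All oEV-EMT libraries were the higher, and oEV-ctrl 2 was the lowest. The means were 100.5 ± 18.0 and 58.0 ± 12.9 FPKM (SD, n = 3), a log2 fold change of 0.79 (SE 0.24, 95% interval 0.27 to 1.32, limma adjusted p = 0.184), and 0.60 without oEV-ctrl 2. *Timm50* (ENSMUSG00000003438, chromosome 7, 28305516 to 28312072, minus strand) shared no stretch of sequence with another gene.

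*Timm17b*, one of the paralogous TIM17 subunits that line the TIM23 channel, was at 18.4, 18.1 and 16.4 FPKM with oEV-EMT and 13.8, 9.96 and 14.8 FPKM with oEV-ctrl. The groups were separate but close, and oEV-ctrl 2 again gave the lowest value. Its log2 fold change was 0.44 (SE 0.22, 95% interval -0.05 to 0.93, limma adjusted p = 0.372), and 0.28 without oEV-ctrl 2. Its paralogue *Timm17a*, the more abundant form, was at 85.4 ± 13.9 and 83.3 ± 16.3 FPKM (SD, n = 3), a log2 fold change of 0.04 (95% interval -0.45 to 0.53). The ratio of *Timm17a* to *Timm17b* was 3.90, 4.69 and 6.07 with oEV-EMT and 7.38, 7.51 and 4.92 with oEV-ctrl, which overlapped (log2 difference -0.43, exact permutation p = 0.2, adjusted p = 0.375).

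*Timm23* itself was at 548 ± 99.0 and 483 ± 57.5 FPKM (SD, n = 3), a log2 fold change of 0.17 (95% interval -0.28 to 0.62), and 57.5% of its 50-base stretches also occur in other genes. The ratio of *Timm23* to *Timm50* was 3.69, 5.77 and 7.62 with oEV-EMT and 6.55, 10.8 and 8.51 with oEV-ctrl. Of these ratios 2 of the oEV-EMT group lay below the oEV-ctrl range and 1 inside it (log2 difference -0.63, exact permutation p = 0.2, adjusted p = 0.375). *Timm22*, the channel of the carrier translocase, and *Timm21* had log2 fold changes of 0.21 (95% interval -0.28 to 0.71) and -0.08 (95% interval -0.58 to 0.42).

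In the import motor the groups did not overlap for 2 of 6 members, *Dnajc19*, on the lower side with oEV-EMT, and *Pam16*, on the higher side. Over all tested genes, 4.34% were lower and 18.1% higher without overlap. *Dnajc19*, the J-domain protein that stimulates mitochondrial Hsp70, was at 55.9, 46.0 and 46.7 FPKM with oEV-EMT and 65.6, 100.2 and 59.7 FPKM with oEV-ctrl. Every oEV-EMT library was below every oEV-ctrl library, and oEV-ctrl 2 was far above the others. The means were 49.5 ± 5.54 and 75.2 ± 21.9 FPKM (SD, n = 3), a log2 fold change of -0.56 (SE 0.24, 95% interval -1.09 to -0.04, limma adjusted p = 0.298). Without oEV-ctrl 2 the value was -0.34. *Dnajc19* (ENSMUSG00000027679, chromosome 3, 34056020 to 34081321, minus strand) shares 4.79% of its 50-base stretches with the pseudogene *Dnajc19-ps*, at 15.4, 21.2 and 13.9 FPKM with oEV-EMT and 23.8, 35.7 and 28.5 FPKM with oEV-ctrl, so that the pseudogene was also lower in each oEV-EMT library. *Fxr1* on the opposite strand shares 2.07% of the stretches and was at 43.0, 32.8 and 37.7 FPKM with oEV-EMT and 33.0, 28.1 and 29.7 FPKM with oEV-ctrl. Summed with both genes, the log2 difference was -0.35.

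*Pam16*, a J-like protein that pairs with Dnajc19 and tempers it, was at 119.9, 138 and 120.0 FPKM with oEV-EMT and 96.5, 99.8 and 103 FPKM with oEV-ctrl. The groups did not overlap, and both were narrow. The means were 126 ± 10.5 and 99.8 ± 3.28 FPKM (SD, n = 3), a log2 fold change of 0.33 (SE 0.18, 95% interval -0.07 to 0.73, limma adjusted p = 0.408) that was 0.07 with upper quartile factors. *Dnajc15*, the paralogue of *Dnajc19*, was at 42.1 ± 6.85 and 39.4 ± 4.20 FPKM (SD, n = 3). Its ratio to *Dnajc19* was 0.612, 1.02 and 0.969 with oEV-EMT and 0.543, 0.438 and 0.650 with oEV-ctrl, with oEV-EMT 1 inside the oEV-ctrl range (log2 difference 0.66, exact permutation p = 0.2, adjusted p = 0.375).

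The remaining motor genes overlapped between groups. *Timm44*, which tethers the motor to the channel, had a log2 fold change of 0.33 (95% interval -0.16 to 0.82), *Grpel1*, the nucleotide exchange factor, 0.12 (95% interval -0.38 to 0.62), and *Hspa9*, mitochondrial Hsp70, -0.09 (95% interval -0.62 to 0.43). *Hspa9* stood at 169, 119 and 97.7 FPKM with oEV-EMT and 149, 115 and 139 FPKM with oEV-ctrl, so that its highest and its lowest value were both from oEV-EMT libraries.

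In the sorting and assembly machinery, *Mtx1* had the smallest p-value. All 3 members had log2 fold changes above 0, as did 70.1% of tested genes, and that of *Mtx2*, 0.13, was below the all-gene median of 0.17. *Mtx1*, an outer membrane metaxin, was at 54.8, 55.2 and 42.4 FPKM with oEV-EMT and 32.2, 32.1 and 43.2 FPKM with oEV-ctrl. Libraries 1 and 2 of each group were well apart, and the third libraries were nearly equal. The log2 fold change was 0.49 (SE 0.22, 95% interval 0.01 to 0.98, limma adjusted p = 0.315) and was 0.23 with upper quartile factors. *Mtx2*, its partner, was at 125 ± 24.5 and 113 ± 5.66 FPKM, and *Samm50*, the core that inserts barrel proteins, was at 7.02 ± 2.01 and 4.67 ± 1.56 FPKM (SD, n = 3). *Samm50* had a log2 fold change of 0.50 with a 95% interval of -0.12 to 1.13. The subunits of the processing peptidase, *Pmpca* and *Pmpcb*, had log2 fold changes of 0.25 (95% interval -0.29 to 0.79) and 0.27 (95% interval -0.22 to 0.76).

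Of the 10 ratios of paralogues or partners, only those of *Timm9* and *Timm10b* to *Timm10* separated the groups. Both are taken over *Timm10*, which was lowest in oEV-EMT 3, so they are not independent observations. The other 5 not given above, *Mtx1* to *Mtx2*, *Tomm22* to *Tomm20*, *Grpel1* to *Grpel2*, *Timm8a1* to *Timm8b* and *Pmpca* to *Pmpcb*, overlapped, with log2 differences from -0.36 (*Tomm22* to *Tomm20*) to 0.38 (*Mtx1* to *Mtx2*) and exact permutation p from 0.3 to 1. The ratio of *Pmpca* to *Pmpcb* had the smallest difference, -0.02, with values from 0.373 to 0.480 over the 6 libraries.

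**Figure D4:**
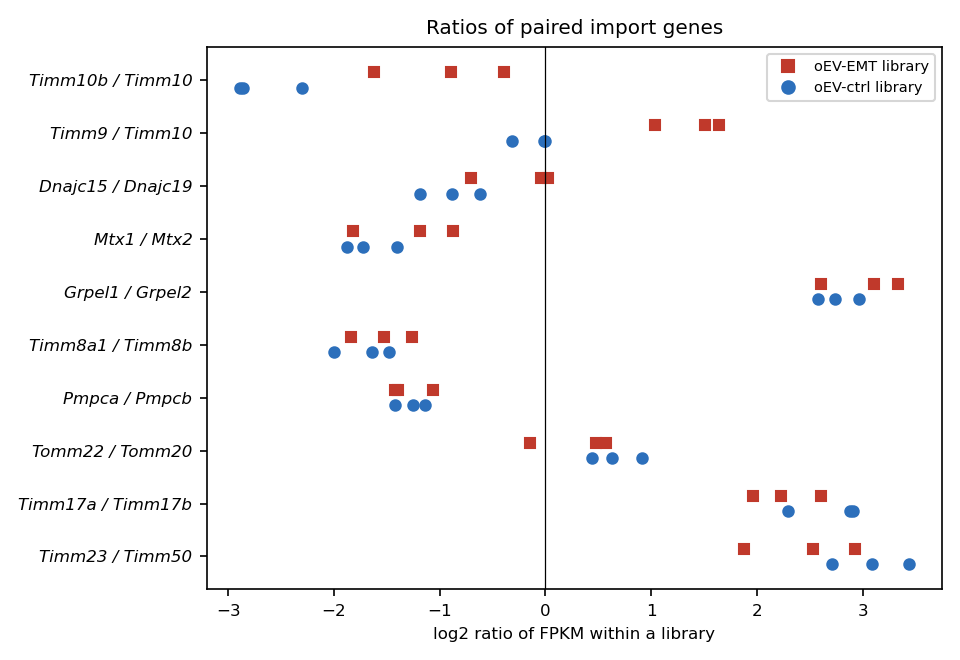
Log2 ratio of FPKM within each library for 10 pairs of import genes, with squares for oEV-EMT libraries and circles for oEV-ctrl libraries and a line at equal levels. The oEV-EMT libraries lie above all oEV-ctrl libraries for *Timm10b* over *Timm10* and *Timm9* over *Timm10*, and the groups overlap for the other 8.

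Another 28 genes around the import path but outside the members were read from the same fit, and 26 were tested. They include cytosolic chaperones, peptidases and matrix chaperonins, and not all of them act in import itself. At an unadjusted limma p of at most 0.05, 1 was higher with oEV-EMT (3.85%, beside 12.8% of all tested genes) and 0 were lower (beside 2.55%), and 0 passed the adjusted threshold. The one was *Hspd1*, the matrix chaperonin Hsp60, at 237, 239.6 and 210.3 FPKM with oEV-EMT and 167, 150.2 and 189 FPKM with oEV-ctrl (log2 fold change 0.44, SE 0.19, limma adjusted p = 0.295). *Romo1*, a small inner membrane protein of the TIM23 path, was at 0.44 with overlap, *Dnlz*, which keeps mitochondrial Hsp70 soluble, at 0.41 without overlap, and *Hsp90aa1*, a cytosolic chaperone that delivers preproteins to TOM, at -0.32 without overlap. The median log2 fold change of these 26 genes was 0.11.

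Genes whose products use or neighbour the import path were set beside the members by counts alone, for which all tested genes gave 12.8% higher, 2.55% lower and a median of 0.17. Of 17 small proteins with the cysteine pattern handled by Chchd4, 4 were higher with oEV-EMT at an unadjusted limma p of at most 0.05 (23.5%, *Cox19*, *Cmc2*, *Chchd2* and *Coa4*) and 2 were lower (11.8%, *Uqcrh* and *Cox6b1*), with a median of 0.21. Of 78 mitochondrial ribosomal proteins, 16 were higher (20.5%) and 0 lower with a median of 0.26. Of 39 tested genes with symbols starting Nduf, which encode complex I subunits apart from *Ndufa4*, now placed in complex IV, 0 were higher and 4 lower (10.3%; *Ndufa4*, *Ndufa1*, *Ndufb2* and *Ndufb6*), with a median of -0.05. Of 7 genes of the MICOS complex, which shapes the cristae, 0 passed in either direction, and the median was 0.19. Differences between these lists and the members were not tested, and under an adjusted p none of these genes was called.

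Markers of the blastocyst lineages were read in the same libraries. In bulk RNA, fewer cells of a type and less RNA per cell cannot be told apart. Of all tested genes, 18.1% were above in all oEV-EMT libraries and 4.34% below, and the marker lists are short. Of 7 trophectoderm markers 0 were without overlap, and their summed level was 3109 to 4728 FPKM with oEV-EMT and 3067 to 4817 FPKM with oEV-ctrl. Of 5 epiblast markers 3 (*Nanog*, *Pou5f1* and *Fgf4*) were above in all oEV-EMT libraries, with sums over the 5 of 81.7 to 103 FPKM against 38.7 to 61.6 FPKM. *Nanog* made up most of the oEV-EMT sums, and *Klf2* and *Sox2* overlapped, at log2 fold changes of 0.07 and -0.32. Of 5 primitive endoderm markers 2 (*Gata4* and *Sox7*) were above, with sums of 30.3 to 46.9 FPKM against 30.6 to 36.1 FPKM, while *Gata6* (-0.19), *Pdgfra* (0.08) and *Sox17* (0.95) overlapped. The epiblast sums were higher with oEV-EMT, as were *Timm10b*, *Tomm6*, *Timm9* and *Timm50*, while *Dnajc19* and *Timm10* were lower. Of all tested genes, 70.1% had a log2 fold change above 0. The part of the lineage composition in these differences was not tested. Of 4 oocyte markers 1 (*Zp3*) was above, with sums of 3.84 to 6.93 FPKM against 2.34 to 3.29 FPKM. *Cyp19a1*, *Fshr*, *Amh*, *Foxj1*, *Ptprc* and *Hbb-bs* were listed at 0 in all libraries. Markers of cumulus cells (at most 0.0484 FPKM in sum) and of oviduct epithelium (at most 0.349 FPKM in sum) were near 0 in all libraries, and those of blood summed to at most 2.22 FPKM with no marker separating the groups.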

How the data were processed

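Polyadenylated RNA of 6 libraries, 3 per group, was sequenced by the authors as paired-end reads. The authors aligned the reads, assembled transcripts with StringTie (build mm10 in the submitters' processing notes) and deposited 1 table of 55774 genes. The deposited values were taken as FPKM, since each library sums to over 1000000, although the methods speak of TPM. The aligner, the quantifier and the strand setting are not given in the sources used here. Low values do not fall on steps of whole reads, so the depth is unknown and counting error was not computed. Names and positions came from GENCODE M21 (GRCm38), which held 55141 of the 55487 Ensembl identifiers, and promoters from RefSeq (GRCm38.p6).

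Genes that reached an FPKM of 1 in 3 or more libraries were fitted as log2(FPKM + 1) with limma 3.58.1 (R 4.3.3, variance trend, robust), with Benjamini-Hochberg adjustment of the p-values over all 11924 genes. The thresholds were those of the study's methods. Ratios of members were compared by exact two-sided permutation over the libraries. Library values are given for members whose groups do not overlap or whose unadjusted p is at most 0.05, which were 10. Members, lists and markers were chosen with earlier results of these data known. Sequence shared with other genes was found as identical stretches of 50 bases in transcripts, and summing such genes was chosen after seeing the data. No 2 libraries held identical values. The alternatives were other scalings, filters, a pseudocount of 0.1, other variance models, array weights, a length offset, the replicate number as a block and the omission of each library in turn. Protein sequences were not used here.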

Additional observations from a re-analysis of the deposited data

How the results depend on the processing

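Fits in which the fold change could move were other scalings, pseudocount, array weights, length offset and leaving out each library. In all 120 values from them, the 10 import genes with library values kept their direction. For the 8 without overlap between groups, the pseudocount, array weights and leaving out a library could change the size but not the direction. Only the other scalings and the length offset could have reversed those 8. No import gene reached an adjusted limma p of 0.05 in any alternative, the lowest being 0.0518 for *Timm10b*. The count of members lower at an unadjusted limma p of at most 0.05, 1 in the report, was 0 with equal sums, 0 with no filter, 0 with the replicate block, 2 with median-of-ratios factors, 2 with upper quartile factors, and 0 to 1 with 1 library left out. The count higher, 6 in the report, was 11 with array weights, which gave oEV-EMT 1 a weight of 0.352 and oEV-EMT 2 a weight of 2.40, 4 with median-of-ratios factors, upper quartile factors or no filter, 5 with the replicate block, 7 with equal sums, and 4 to 7 with 1 library left out. Members below the median of all genes, 14 in the report, were 6 with no filter, which admits many genes near 0, and 8 (without oEV-EMT 1) to 17 with 1 library left out. Members without overlap, 8 in the report, were 7 with upper quartile factors and 8 to 14 with 1 library left out, 14 being without oEV-EMT 1 or oEV-EMT 3, as fewer libraries overlap less often by construction. Split into above and below, they were 6 and 2 in the report, 8 and 0 with equal sums, and 4 and 3 with upper quartile factors. Over all genes, 0 passed both thresholds in the report, 4 with an FPKM of at least 1 in all libraries, 104 with array weights, 21 with the replicate block, and 0 to 16 with 1 library left out (4 without oEV-EMT 1, 1 without oEV-EMT 3 and 16 without oEV-ctrl 3). The cause of these shifts was not tested except where stated. Deviations from the group means correlated at 0.119, -0.0442 and 0.0388 between same-numbered libraries, and at -0.135 to 0.122 between the others. With 3 libraries per group these values cannot decide whether equal numbers mark a shared culture. The labels do not say so either, and the block is therefore given here only. The ratio of *Pmpca* to *Pmpcb*, at a log2 difference of -0.02, ran from -0.133 to 0.0473 with 1 library left out, and changed sign without oEV-EMT 2 (0.0463), oEV-EMT 3 (0.0320) or oEV-ctrl 3 (0.0473). The other 9 ratios kept their direction with a pseudocount of 0.1 and with each library left out. For the 2 that separated the groups, leaving out a library could not have reversed the direction. The unknown depth limits statements on the lowest genes, *Timm21* and *Samm50*.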
